A study of Mus musculus with 30 samples.

Results

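Interferon-stimulated genes are the genes that cells switch on after an interferon binds its receptor, and a panel of 37 of them was followed here in mouse lung organoid cultures that received inflammatory or fibrotic factors but no interferon. The members were the rows of the count files whose gene symbol was on the panel, 37 of the 55487 genes counted, and all 37 were found. The cultures combined CD31-CD45-Epcam+ lung cells of adult C57BL/6J mice with CCL206 cells, a mouse lung fibroblast line inactivated with mitomycin C, so that every culture and every control held both. After 72 hours the cultures were sorted with Epcam beads into an epithelial fraction (Epcam+) and a fibroblast fraction (Epcam-), and each was sequenced as bulk RNA. The vehicle cultures received no factor, EC cultures received an exacerbation cocktail of 4 factors (IL-1β, IL-6, the IL-8 homologue KC and TNF-α), IPFc cultures a cocktail of 9 factors named for idiopathic pulmonary fibrosis (the interleukins IL-1β, IL-4, IL-13 and IL-33, the chemokines CCL2 and IL-8, and TSLP, TNF-α and TGF-β), and TGFb cultures 2 ng/ml TGF-β alone. The mice numbered 4, and the 30 libraries held 4 mice in each of the 8 groups, except that fibroblast vehicle of mouse 2 and epithelial TGFb of mouse 1 were not analysed here. Since CCL206 is a single cell line, the fibroblast libraries of different mice differ in the culture and in the Epcam+ cells grown beside them, and not in the mouse the fibroblasts came from.

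Interferons of type I and type III signal through factors that include Stat2 and Irf9 and bind the interferon-stimulated response element (ISRE), a DNA motif built from repeats of GAAA. Interferon-γ acts through the gamma-activated site (GAS), and Irf1, itself an interferon-induced factor, binds ISRE-like motifs as well. The products of these genes sense viral RNA, block viral entry or replication, attack intracellular microbes or attract T cells, and inflammatory cytokines such as TNF-α can induce part of them through NF-kappaB and Irf1 without interferon. In the lung, epithelial cells and fibroblasts both express members of the panel at a low level without infection.

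To show what these elements look like, promoter stretches of 9 members whose values are described below are printed here from RefSeq, build GRCm38.p6, on the strand of the gene, with each motif match in capitals. RefSeq promoter windows, 250 bases before to 50 after a transcription start, were matched by symbol for 28 of the 37 members. For Irf1 the stretch is chr11:53769894-53770013 on the plus strand, ending 1 base before the start, and holds a GAS match and an NF-kappaB match. The Gbp2, Gbp3 and Gbp7 stretches lie within 1 gene cluster on the plus strand, at chr3:142620579-142620638, chr3:142559980-142560039 and chr3:142530258-142530317, and each holds ISRE matches. On the minus strand lie Irgm1 at chr11:48871421-48871480, Cxcl10 at chr5:92348978-92349107, Isg15 at chr4:156200850-156200909, Bst2 at chr8:71537562-71537621 and Oas1a at chr5:120907526-120907585. Where capitals run on, as in Gbp3, Irgm1, Isg15, Bst2 and Oas1a, matches overlap or touch.
Irf1: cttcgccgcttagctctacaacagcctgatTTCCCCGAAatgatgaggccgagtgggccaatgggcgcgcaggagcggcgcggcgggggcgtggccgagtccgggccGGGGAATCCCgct
Gbp2: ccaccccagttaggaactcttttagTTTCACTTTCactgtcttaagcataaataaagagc
Gbp3: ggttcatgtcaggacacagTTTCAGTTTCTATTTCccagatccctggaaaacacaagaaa
Gbp7: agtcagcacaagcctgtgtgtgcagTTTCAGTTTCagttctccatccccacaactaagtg
Irgm1: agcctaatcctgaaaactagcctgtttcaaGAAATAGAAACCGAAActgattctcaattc
Cxcl10: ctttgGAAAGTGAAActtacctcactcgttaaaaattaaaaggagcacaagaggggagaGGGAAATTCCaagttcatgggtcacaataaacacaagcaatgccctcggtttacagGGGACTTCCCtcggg
Isg15: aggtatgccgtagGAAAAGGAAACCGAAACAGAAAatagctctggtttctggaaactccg
Bst2: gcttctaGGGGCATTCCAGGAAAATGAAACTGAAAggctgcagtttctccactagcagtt
Oas1a: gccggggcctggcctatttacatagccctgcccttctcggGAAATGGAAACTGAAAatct
The ISRE core was searched as GAAANNGAAA, the GAS core as TTCNNNGAA and the NF-kappaB motif by its usual degenerate form, each on both strands. A gene was counted if any of its promoter windows held a match. The ISRE core was found for 16 of the 28 members (57.1%) and for 3.99% of all 27025 genes with windows of the same length. The GAS core was found for 8 members (28.6%), against 9.55% of all genes. The NF-kappaB motif was found for 4 (14.3%), namely Bst2, Cxcl10, Irf1 and Oasl1, against 5.14%. A match is a description of the letters, and the files hold no measurement of binding.

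The libraries held 5113828 to 20317181 counted reads, the lowest in fibroblast EC of mouse 1. Levels are given as CPM, a gene's reads scaled to a common library total, after TMM normalisation, in the order of mice 1 to 4 with the absent library left out, and 3 reads, the limit that a count of 0 allows, correspond to 0.146 to 0.600 CPM across the libraries. Epithelial markers (27 genes) summed to 11493 to 37655 CPM in epithelial libraries and fibroblast markers (28 genes) to 14190 to 55277 CPM in fibroblast libraries, although Thy1, a common fibroblast marker, was at 0 in 3 of the 4 fibroblast groups. In epithelial TGFb libraries the fibroblast markers, at 15560 to 17826 CPM, summed to more than the epithelial ones, at 11493 to 14209 CPM. Fibroblast EC libraries held 11746 to 18167 CPM of epithelial beside 14190 to 22889 CPM of fibroblast markers. Immune markers (25 genes, of which 6 to 9 averaged over 1 CPM in each group) summed to 366 to 395 CPM in epithelial vehicle, 485 to 629 with EC, 296 to 377 with IPFc and 295 to 474 with TGFb, and to 189 to 234 CPM in fibroblast vehicle, 289 to 402 with EC, 122 to 193 with IPFc and 40.6 to 56.0 with TGFb. Ptprc, which encodes the leukocyte antigen CD45, was at 0 to 1.05 CPM in all libraries, and some of the list, such as Cd74 and Lyz2, is also expressed by alveolar epithelial cells. A list of 5 genes of plasmacytoid dendritic cells, the professional interferon producers, summed to 59.9 to 308 CPM with 2 or 3 of the 5 over 1 CPM in each group. It includes the panel member Bst2, and Siglech, its most specific gene, was at 0 in 7 of the 8 groups and at most 0.0728 CPM in fibroblast vehicle.

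Each fraction also held RNA of the other, and the share differed between the groups. It was estimated as the median ratio of the other fraction's marker genes in a library to the same genes in the partner library of that mouse and treatment, over markers with at least 50 CPM in the partner. In epithelial libraries the share was 6.38% ± 2.51 (SD, n = 4) with vehicle, 12.3% ± 4.96 (n = 4) with EC, 12.1% ± 5.61 (n = 4) with IPFc and 27.9% ± 2.58 (n = 3) with TGFb. In fibroblast libraries it was 20.1% ± 6.59 (n = 3) with vehicle, 42.2% ± 6.95 (n = 4) with EC, 17.8% ± 8.48 (n = 4) with IPFc and 2.33% ± 1.39 (n = 4) with TGFb. Epithelial TGFb, fibroblast EC and fibroblast TGFb did not overlap with their vehicle groups (exact two-sided permutation test, p = 0.0286 each, the smallest these group sizes allow, and 0.0572 adjusted over the 6 comparisons). This test does not use the mouse, and within mice the epithelial share was above vehicle in 4 of 4 with EC and 4 of 4 with IPFc. Since a member that differs between the fractions moves with this share, and fewer cells of a type cannot be told apart from less RNA per cell in bulk RNA, the comparisons below are given as measured and then, in counts of calls or values, after the share was taken into account in up to 3 ways: subtraction of the estimated share of the partner library, subtraction of a share estimated from Xist or Y-linked genes, and an edgeR offset for the mixture expected from the vehicle libraries. The last 2 were chosen after the data had been seen. Counts that fell below 0 after a subtraction were set to 0. Counts over all genes are given below for the subtractions only. Member counts with the offset therefore have no share of all genes beside them.

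**Figure D1:**
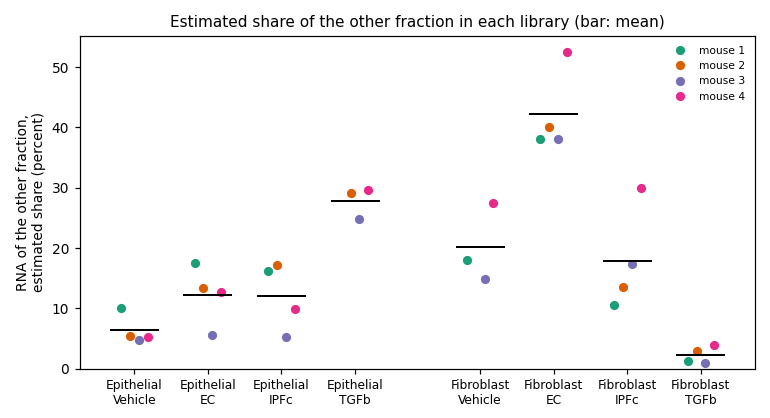
Estimated share of RNA of the other fraction (percent, vertical axis) in each of the 30 libraries, by group (horizontal axis). Points are libraries coloured by mouse and bars are group means. The 3 epithelial TGFb libraries lie above all epithelial vehicle libraries, the 4 fibroblast EC libraries above all fibroblast vehicle libraries, and the 4 fibroblast TGFb libraries below 5%.

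The first question was where the panel is expressed when no factor is added. In vehicle cultures 24 of the 35 members tested were lower in the epithelial fraction than in the fibroblast fraction and 5 were higher (edgeR quasi-likelihood test, Benjamini-Hochberg adjusted p under 0.05 over all 18364 genes tested, as throughout). The mouse was a block within each fraction, so these p-values do not measure how the difference between fractions varies between mice. Of all genes tested, 29.4% were called lower and 29.1% higher. The median log2 difference, epithelial minus fibroblast, was -1.76 over the members (-1.62 with Oas2, which had no epithelial read, set at its bound) and 0.02 over all genes. After either subtraction of the share of the other fraction 29 members were called, 24 lower and 5 higher, and the offset, which is built from this comparison, gives no value for it. Over all genes, 9233 of 18247 and 8865 of 18239 were called after the subtractions.

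All 4 transcription factors of the panel were lower in the epithelial fraction. Irf1, which activates many of the other members, stood at 34.9, 47.0, 66.5 and 81.4 CPM in epithelial vehicle and at 120.2, 239.5 and 517 CPM in fibroblast vehicle libraries. The fractions did not overlap, and the fibroblast libraries differed from each other more than the epithelial ones did. The log2 difference was -2.15 ± 0.22 (SE), adjusted p = 4.43e-09. Stat2, Irf7 and Irf9 differed by -0.995, -1.12 and -0.80 on the log2 scale.

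The guanylate-binding proteins and immunity-related GTPases, which attack vacuoles that hold microbes, showed the same direction in 6 of 6 members, with log2 differences from -1.31 for Irgm1 to -4.19 for Gbp3. Gbp3 measured 1.78, 1.05, 0.615 and 1.53 CPM in epithelial and 18.6, 16.8 and 29.0 CPM in fibroblast vehicle libraries, with no overlap (adjusted p = 3.1e-11). Iigp1 measured 1.03, 0.0811, 0.564 and 0.849 CPM against 9.55, 11.4 and 6.67 CPM, again apart (log2 difference -4.06 ± 0.37, SE, adjusted p = 6.03e-10). Gbp7 followed at -3.79 ± 0.38 (SE, adjusted p = 2.73e-09), with 1.71, 0.324, 0.564 and 0.679 CPM against 13.01, 9.31 and 9.38 CPM.

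Among sensors and effectors, Zbp1, a sensor of Z-form nucleic acid, differed by -3.65 ± 0.37 (SE, adjusted p = 2.96e-09), from 1.303, 0.406, 1.18 and 0.509 CPM in the epithelial to 12.7, 10.19 and 11.3 CPM in the fibroblast libraries. Xaf1, a pro-apoptotic factor, differed by -4.17 ± 0.45 (SE, adjusted p = 1.08e-08), from 1.44, 0.487, 0.308 and 0.424 CPM to 11.0, 10.6 and 8.31 CPM. Neither gene overlapped between the fractions. Oas2, of the oligoadenylate synthetases that activate RNase L, had 0 reads in the 4 epithelial and 6 reads in the 3 fibroblast vehicle libraries, at least 2.71-fold lower when the 0 is taken as 3 reads over the group, with a 95% counting interval that begins at 1.60-fold.

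The 5 members higher in the epithelial fraction were Oas1a, Oasl1, Mx1, Rsad2 and Trim25. Oas1a measured 2.81, 2.51, 2.00 and 2.55 CPM in epithelial and 0.226, 0.0728 and 0.126 CPM in fibroblast vehicle libraries (log2 difference 4.57 ± 0.53, SE, adjusted p = 4.01e-08). Mx1, a GTPase against RNA viruses whose gene is defective in most laboratory strains, measured 60.6, 64.7, 58.4 and 54.9 CPM against 7.44, 9.53 and 12.1 CPM (2.63 ± 0.24, SE, adjusted p = 5.2e-10). Both were apart in every library, so that the OAS and Mx families were each split between the fractions, with Oas1a and Oasl1 against Oas2 and Oasl2, and Mx1 against Mx2. Trim25, a ubiquitin ligase that activates the RNA sensor RIG-I, measured 84.5, 76.2, 79.3 and 77.3 CPM against 33.6, 34.3 and 39.0 CPM (1.14 ± 0.15, SE, adjusted p = 3.73e-07). Oasl1 at 0.686, 1.05, 1.13 and 0.255 CPM against 0.301, 0.0728 and 0.252 CPM (2.24 ± 0.85, SE, adjusted p = 0.0266) and Rsad2, the antiviral enzyme viperin, at 0.343, 0.406, 1.38 and 0.934 CPM against 0.0752, 0.218 and 0.126 CPM (2.23 ± 0.92, SE, adjusted p = 0.0399) were close to the detection limit.

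**Figure D2:**
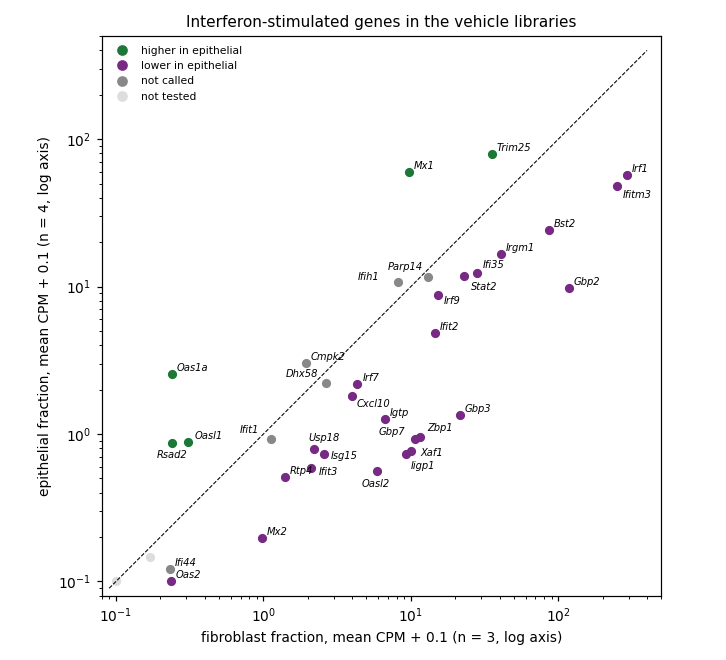
Mean level of each member in the vehicle libraries, fibroblast fraction (horizontal axis, CPM + 0.1, log axis, n = 3) against epithelial fraction (vertical axis, CPM + 0.1, log axis, n = 4), with equality dashed. Colours give the edgeR call, 5 higher and 24 lower in the epithelial fraction, and most members lie below the dashed line.

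Levels between genes were compared per kb of exon. In epithelial vehicle libraries the leading members were Ifitm3, which blocks viral entry at membranes, at 37.5 ± 5.69 CPM per kb (SD, n = 4), Bst2 or tetherin, which holds budding virus at the cell surface, at 19.8 ± 2.47, Mx1 at 17.7 ± 1.21 and Trim25 at 13.8 ± 0.637. Mx1 and Bst2 differed by less than their spread. In fibroblast vehicle libraries the order was Ifitm3 at 194 ± 39.9 CPM per kb (SD, n = 3), Bst2 at 71.4 ± 12.2, Irf1 at 62.5 ± 43.6 and Gbp2 at 46.0 ± 14.9, and the last 3 overlapped. At the other end, Cxcl9, a T-cell chemokine typical of interferon-γ, had no read in any of the 30 libraries, and Ifi44, Oas2, Oas3 and Oasl1 also stayed under 1 CPM in the mean of all 8 groups. Oas3 and Cxcl9 were below the filter in every fit and Oas2 in the epithelial one, which left 34 members tested in the epithelial and 35 in the fibroblast fraction.

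**Figure D3:**
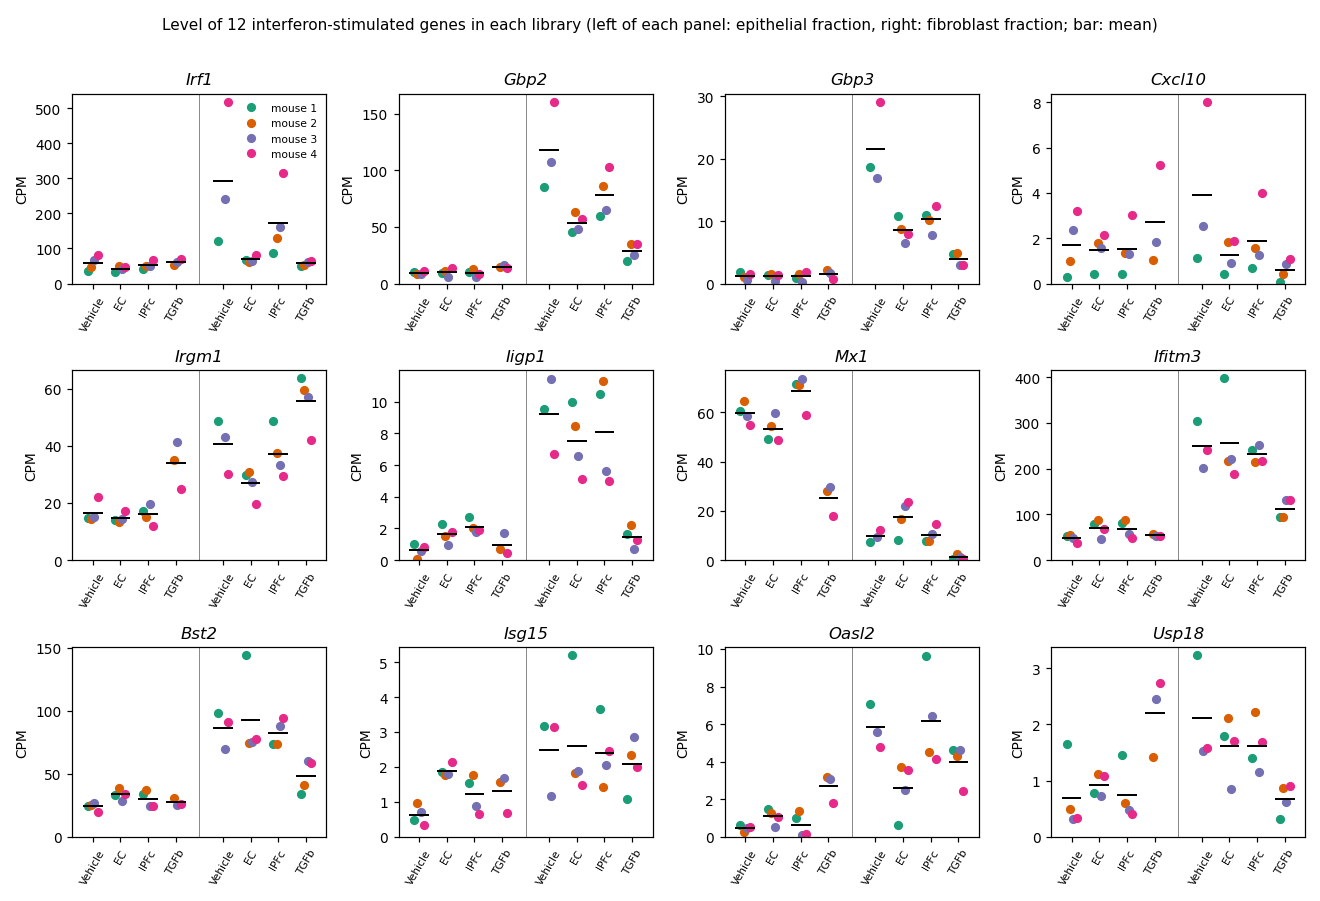
Levels of 12 members in every library (vertical axis, CPM, linear from 0), with the 4 epithelial groups left and the 4 fibroblast groups right of the grey line in each panel (horizontal axis, treatment). Points are libraries coloured by mouse and bars are group means. Irf1, Gbp2, Gbp3 and Cxcl10 have their highest values in fibroblast vehicle libraries, and mouse 4 is highest in those.

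The effect of the exacerbation cocktail on fibroblasts came next. In the EC fibroblast libraries 8 of the 35 members were called, each lower than with vehicle: Irf1, Ifit2, Xaf1, Gbp2, Gbp3, Gbp7, Irgm1 and Cxcl10. Over all genes tested, 2.84% were lower and 4.28% higher, and the median log2 fold change was -0.51 over the members and -0.02 over all genes. For each of the 8, all 3 mice with both libraries showed the lower value with EC, and 5 of the 8 members did not overlap between the groups. Here and below, direction by mouse and overlap were counted among members already called, and not over all genes. Such counts describe the called values and are not separate evidence. EC, IPFc and TGFb libraries of a fraction were each compared with the same vehicle libraries, so the comparisons are not independent.

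Irf1 led, at 67.6, 62.5, 63.4 and 81.4 CPM with EC beside the 120.2, 239.5 and 517 CPM of the vehicle libraries. Each EC library lay below each vehicle library (3.55-fold lower, log2 fold change -1.83 ± 0.26, SE, adjusted p = 0.000555). The GAS and NF-kappaB matches in its promoter are the ones printed above.

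Gbp2 measured 85.6, 108 and 160.1 CPM with vehicle and 45.2, 63.3, 48.5 and 56.7 CPM with EC, with no overlap (2.29-fold lower, -1.20 ± 0.13, SE, adjusted p = 4.97e-05). Gbp3 went from 18.6, 16.8 and 29.0 to 10.8, 8.77, 6.55 and 7.93 CPM, also without overlap (2.64-fold lower, -1.40 ± 0.21, SE, adjusted p = 0.000867). Gbp7 and Irgm1, of the same role, changed by -0.89 and -0.63 on the log2 scale. Igtp and Iigp1 did not pass, with log2 fold changes of -0.81 (adjusted p = 0.0683) and -0.50 (adjusted p = 0.260).

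Cxcl10, a chemokine that attracts activated T cells, measured 1.13, 2.55 and 7.997 CPM with vehicle and 0.400, 1.82, 0.910 and 1.87 CPM with EC. The groups overlapped, and in both the lowest value was that of mouse 1 (2.90-fold lower, -1.54 ± 0.40, SE, adjusted p = 0.0294). Xaf1 measured 11.0, 10.6 and 8.31 CPM with vehicle and 3.60, 5.89, 5.04 and 4.13 CPM with EC, without overlap (-1.16 ± 0.29, SE, adjusted p = 0.0214). Ifit2, which binds foreign RNA and stops its translation, measured 17.4, 18.4 and 7.62 CPM against 6.40, 9.75, 8.37 and 6.22 CPM, with the vehicle library of mouse 4 inside the EC range (-0.91 ± 0.22, SE, adjusted p = 0.0175).

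The sensors, OAS, Mx and ISG15 groups had no call with EC in fibroblasts. Ifih1, the RNA sensor MDA5, had a log2 fold change of -0.61 (adjusted p = 0.174), with 6.54, 10.04 and 7.62 CPM with vehicle and 3.40, 6.10, 6.86 and 6.39 CPM with EC, and Usp18, the protease that removes Isg15, one of -0.58 (adjusted p = 0.424), with 3.23, 1.53 and 1.57 CPM against 1.80, 2.10, 0.849 and 1.71 CPM. Both groups overlapped for each of these genes. Among the members that are higher in the epithelial fraction, Oas1a was at 2.66 (adjusted p = 0.0615), from 0.226, 0.0728 and 0.126 to 0.800, 0.210, 0.910 and 0.881 CPM, and Mx1 was at 0.77 (adjusted p = 0.159), from 7.44, 9.53 and 12.1 to 7.997, 16.6, 22.0 and 23.7 CPM.

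With the epithelial share taken into account in fibroblast EC libraries, 0 members passed after subtraction of the estimated share, 1 (Gbp2) after subtraction of the Xist or Y-linked share and 2 (Irf1 and Gbp2) with the offset, while 12 had passed an unadjusted p under 0.05 with a lower value in the counts as deposited. Calls over all genes fell as well, from 1284 of 18048 as deposited to 39 of 17421 and 39 of 17600 after the subtractions. Counts at an unadjusted p, here and below, have no share of all genes at that threshold beside them. The log2 fold change of Irf1 was -1.70, -1.80 and -1.39 in the 3 ways (adjusted p = 0.112, 0.0752 and 0.0390). That of Gbp2 was -0.81, -0.98 and -0.75 (adjusted p = 0.0526, 0.0275 and 0.0153). Leaving out fibroblast EC of mouse 1, the library with the fewest reads and a setting added after the data had been seen, gave 13 calls, 10 lower and 3 higher (Oas1a, Mx1 and Trim25). Without mouse 2, 3 or 4 the calls numbered 5, 3 and 4, and 3 were left in the fit without a block for the mouse. Over all genes these fits called 861, 217, 233 and 321, against 1284 as deposited. The summed immune markers, 289 to 402 CPM with EC against 189 to 234 CPM with vehicle, did not overlap either, and their part in the result was not tested.

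The effect of TGF-β alone on fibroblasts followed. With TGFb, 16 of the 35 members were lower than with vehicle and 1 was higher, where 12.8% of all genes were lower and 6.39% higher. The median log2 fold change was -0.84 over the members and -0.02 over all genes. The 16 lower members were lower in all 3 paired mice and did not overlap between the groups. Both counts cover called members only, with no share over all genes. The 16 comprised Irf1, the sensors Ifih1 and Zbp1, Mx1, Usp18, the effectors Bst2, Cmpk2, Parp14, Xaf1 and Ifitm3, the GTPases Gbp2, Gbp3, Gbp7, Igtp and Iigp1, and Cxcl10, while no OAS or IFIT member passed.

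Irf1 measured 48.8, 54.1, 61.3 and 65.2 CPM with TGFb, against 120.2, 239.5 and 517 CPM with vehicle (4.05-fold lower, log2 fold change -2.02 ± 0.26, SE, adjusted p = 1.61e-05). The TGFb libraries spanned a narrow range and the vehicle libraries a wide one.

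Of the GTPases, Gbp2 fell from 85.6, 108 and 160.1 to 20.1, 34.9, 24.9 and 35.0 CPM (4.12-fold lower, -2.04 ± 0.13, SE, adjusted p = 5.45e-09). Gbp3 fell from 18.6, 16.8 and 29.0 to 4.76, 4.81, 2.98 and 2.96 CPM (5.45-fold lower, -2.45 ± 0.22, SE, adjusted p = 2.6e-07). Iigp1 fell from 9.55, 11.4 and 6.67 to 1.64, 2.20, 0.683 and 1.27 CPM (6.99-fold lower, -2.81 ± 0.28, SE, adjusted p = 1.12e-06). In these 3 genes the highest TGFb library lay well below the lowest vehicle library. Irgm1, whose promoter holds ISRE matches as those of Gbp2 and Gbp3 do, was the member that rose, with 48.8, 43.1 and 30.2 CPM with vehicle and 63.9, 59.5, 57.0 and 42.2 CPM with TGFb. It was higher in 3 of 3 mice although the groups overlapped (1.40-fold, 0.49 ± 0.12, SE, adjusted p = 0.00833). It was thus called lower with EC and higher with TGFb in the same fraction.

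Mx1 measured 7.44, 9.53 and 12.1 CPM with vehicle and 0.547, 2.41, 1.18 and 0.484 CPM with TGFb (8.36-fold lower, -3.06 ± 0.38, SE, adjusted p = 1.24e-05). Cmpk2, a mitochondrial nucleotide kinase, measured 1.35, 1.82 and 2.39 CPM against 0.703, 0.0668, 0.496 and 0.121 CPM (5.31-fold lower, -2.41 ± 0.61, SE, adjusted p = 0.00850). Cxcl10 measured 1.13, 2.55 and 7.997 CPM against 0.0781, 0.401, 0.869 and 1.09 CPM (5.68-fold lower, -2.51 ± 0.41, SE, adjusted p = 0.000208). All 3 were separate from vehicle, and for each at least 1 TGFb library held under 1 CPM. Ifitm3, the member with the highest level per kb, measured 304, 203 and 240.4 CPM with vehicle and 93.7, 94.3, 131 and 132 CPM with TGFb (log2 fold change -0.99, adjusted p = 0.00177), again apart.

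In the OAS and IFIT families, which had no call, the largest values were those of Oas1a, with 6 reads over the 3 vehicle and 1 read over the 4 TGFb libraries (8.45-fold lower, 95% counting interval 1.02 to 389, adjusted p = 0.261), and Ifit3, with 2.11, 2.11 and 1.83 CPM against 0.234, 1.54, 1.24 and 0.544 CPM (-1.28, adjusted p = 0.10).

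The epithelial share was lower in fibroblast TGFb than in fibroblast vehicle libraries, the reverse of EC. With it taken into account 10 members, each lower, were called in all 3 ways: Irf1, Usp18, Gbp2, Gbp3, Gbp7, Igtp, Iigp1, Zbp1, Ifitm3 and Cxcl10. Over all genes, 840 of 17421 and 895 of 17600 were called after the subtractions, against 3457 of 18048 as deposited. Gbp2 then had log2 fold changes of -2.36, -2.35 and -2.36, larger in size than in the counts as deposited. Irgm1 and Mx1 were called in none of the 3. Mx1 turned to 0.77, 2.55 and 0.41 (adjusted p = 0.971, 0.696 and 0.543), and its level is 6.17-fold higher in the epithelial than in the fibroblast vehicle libraries. The first 2 of these values rest in part on counts below 0 that were set to 0. Fibroblast vehicle of mouse 1, for example, had a share of 18.1% and Mx1 at 7.44 CPM, beside 60.6 CPM in the partner library. The summed immune markers were lower as well, 40.6 to 56.0 CPM with TGFb against 189 to 234 CPM with vehicle, and their part in the result was not tested.

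IPFc, which also contains TGF-β, changed 2 of 35 members in fibroblasts, Gbp2 and Gbp3, both lower, where 0.144% of all genes were lower and 0.305% higher. Gbp2 measured 59.3, 85.8, 65.2 and 103 CPM and overlapped with vehicle (1.58-fold lower, -0.66 ± 0.12, SE, adjusted p = 0.0218). Gbp3 measured 10.9, 10.1, 7.70 and 12.4 CPM, below every vehicle library (2.16-fold lower, -1.11 ± 0.20, SE, adjusted p = 0.0181). Irf1 at 85.8, 131, 161 and 315 CPM (-0.65, adjusted p = 0.554) and Cxcl10 at 0.704, 1.58, 1.26 and 3.99 CPM (-1.01, adjusted p = 0.516) kept their highest value in mouse 4 and did not pass. In the role groups without a call the largest log2 fold changes were -0.36 for Ifih1, 2.10 for Oas2, -0.70 for Ifit3, 0.16 for Mx2, -0.53 for Usp18 and 1.12 for Rsad2 (adjusted p 0.683 to 1). The share of epithelial RNA with IPFc was close to that with vehicle, and after subtraction of it Gbp2 and Gbp3 had log2 fold changes of -0.68 and -1.13 (adjusted p = 0.276 and 0.440). In the 3 ways 0, 0 and 1 (Gbp2) members were called. Over all genes, 3 of 17421 and 3 of 17600 were called after the subtractions, against 81 of 18048 as deposited. Without mouse 2, 3 or 4, or without the mouse as a block, edgeR called 0 members, where 1 was higher and 4 were lower at an unadjusted p under 0.05 with all libraries and DESeq2 called 2. Over all genes these edgeR fits called 51, 14, 15 and 35.

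In the epithelial fraction with TGFb most of the calls were upward. Of 34 members tested, 15 were higher and 2 lower than with vehicle, where 21.0% of all genes were higher and 20.1% lower. The median log2 fold change was 0.68 over the members and 0.03 over all genes. All 17 had the same direction in 3 of 3 paired mice, and 12 of the higher and both lower members did not overlap between the groups. As above, this was counted among called members only. The higher members were Stat2 and Irf9, Ifih1, Oasl2, Ifit2 and Ifit3, Mx2, Usp18, the effectors Ifi44, Xaf1 and Parp14, and the GTPases Gbp2, Gbp7, Igtp and Irgm1, and the lower ones Mx1 and Trim25.

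Stat2 and Irf9 are parts of the ISRE-binding factor. Irf9 measured 9.46, 7.22, 9.95 and 8.23 CPM with vehicle and 14.9, 15.7 and 12.5 CPM with TGFb (log2 fold change 0.79, adjusted p = 0.000283), with no overlap, and Stat2 changed by 0.44 (adjusted p = 0.0290). Ifih1, at 10.1, 9.82, 10.8 and 12.1 CPM with vehicle and 15.4, 17.7 and 14.3 CPM with TGFb, did not overlap either (0.55, adjusted p = 0.00551), nor did Parp14, an ADP-ribosyltransferase, at 14.1, 10.5, 10.9 and 10.4 CPM and 22.3, 25.7 and 19.7 CPM (1.09, adjusted p = 2.47e-06).

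The largest fold changes belonged to members near the detection limit with vehicle. Ifi44 had 1 read over the 4 vehicle and 19 reads over the 3 TGFb libraries (ratio 26.1, 95% counting interval 4.15 to 1085, adjusted p = 0.00565). Mx2 measured 0.343, 0, 0.0513 and 0 CPM with vehicle and 0.684, 0.995 and 0.454 CPM with TGFb (3.06, SE 1.03, adjusted p = 0.0210). Oasl2, a ubiquitin-like member of the OAS family, measured 0.617, 0.243, 0.462 and 0.509 CPM against 3.17, 3.06 and 1.82 CPM (6.69-fold, 2.74 ± 0.57, SE, adjusted p = 0.000565). Each of these genes was higher in all TGFb libraries than in any vehicle library.

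Usp18 measured 1.65, 0.487, 0.308 and 0.339 CPM with vehicle, with mouse 1 standing above the others, and 1.42, 2.45 and 2.73 CPM with TGFb (4.53-fold, 2.18 ± 0.52, SE, adjusted p = 0.00178). Xaf1 measured 1.44, 0.487, 0.308 and 0.424 CPM, again highest in mouse 1, and 1.51, 1.61 and 2.39 CPM with TGFb (4.46-fold, 2.16 ± 0.65, SE, adjusted p = 0.0112). Ifit3 measured 0.343, 0.568, 0.974 and 0.0849 CPM against 1.56, 2.45 and 0.795 CPM (3.15-fold, 1.65 ± 0.65, SE, adjusted p = 0.0456). The vehicle library of mouse 1, whose TGFb partner was not analysed here, fell inside the TGFb range for Usp18, and that of mouse 3 did so for Ifit3.

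Mx1 fell from 60.6, 64.7, 58.4 and 54.9 to 28.2, 29.6 and 17.95 CPM (2.31-fold lower, -1.21 ± 0.12, SE, adjusted p = 4.13e-08). Trim25 fell from 84.5, 76.2, 79.3 and 77.3 to 53.7, 56.4 and 58.6 CPM (1.36-fold lower, -0.45 ± 0.11, SE, adjusted p = 0.00174). Both are higher in the epithelial than in the fibroblast fraction, and neither overlapped. The chemokine group had no call, with Cxcl10 at 0.274, 0.973, 2.36 and 3.22 CPM with vehicle and 1.03, 1.84 and 5.23 CPM with TGFb (0.24, adjusted p = 0.670).

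Fibroblast RNA was estimated from marker genes at 27.9% of the epithelial TGFb libraries, and most of the higher members have higher levels in fibroblasts. Whether epithelial cells themselves express these markers with TGFb was not tested. From Xist or Y-linked genes the share was 30.8%. With the share of fibroblast RNA taken into account 11, 6 and 7 members were called in the 3 ways. Over all genes, 4568 of 17556 and 3087 of 17536 were called after the subtractions, against 7400 of 18024 as deposited. The members called in all 3 ways were Irf9, Ifi44, Ifih1 and Parp14, higher, and Mx1, lower. Irf9 had log2 fold changes of 0.96, 0.96 and 0.65, Ifih1 of 0.94, 0.98 and 0.82, Parp14 of 1.45, 1.5 and 1.19 and Mx1 of -0.81, -0.77 and -0.85. Trim25 moved to -0.19, -0.16 and -0.22 (adjusted p = 0.286, 0.551 and 0.179). Irgm1, 2.09-fold higher as deposited, had log2 fold changes of 0.81, 0.67 and 0.36 and passed in the first way. As deposited, 9 members were called without mouse 3 and 12 to 16 without each other mouse. Calls over all genes were then 5752 without mouse 3 and 6049 to 6941 without each other mouse.

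**Figure D4:**
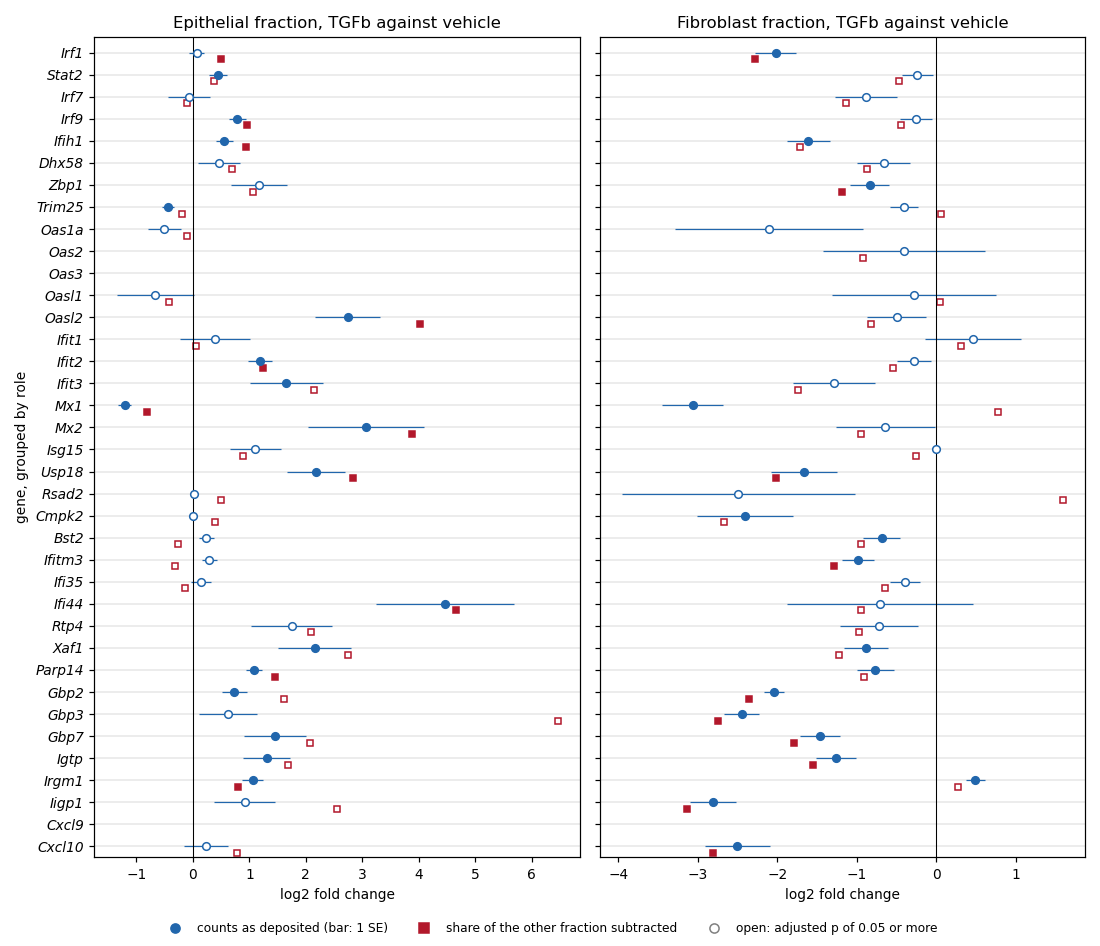
Log2 fold change (horizontal axis) of each member (vertical axis) for TGFb against vehicle, epithelial fraction left and fibroblast fraction right. Blue circles with bars of 1 SE are the counts as deposited, red squares the counts after subtraction of the share of the other fraction, and filled symbols have an adjusted p under 0.05. The fibroblast values stay left of 0 for most members in both, while Mx1 changes side. Counts below 0 after the subtraction were set to 0.

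EC and IPFc changed few members in the epithelial fraction. With EC, 3 of 34 were called, each higher, where 1.96% of all genes were higher and 2.44% lower. Isg15, a ubiquitin-like protein linked to viral and host proteins, measured 0.480, 0.973, 0.718 and 0.339 CPM with vehicle and 1.85, 1.77, 1.79 and 2.15 CPM with EC, all EC libraries above all vehicle libraries (3.10-fold, 1.63 ± 0.41, SE, adjusted p = 0.0222). Bst2 measured 24.5, 25.3, 26.7 and 19.8 CPM against 33.3, 38.9, 28.4 and 33.8 CPM, also apart (1.38-fold, 0.47 ± 0.12, SE, adjusted p = 0.0238). Ifitm3 measured 52.0, 54.8, 47.5 and 38.1 CPM against 80.0, 87.0, 46.8 and 67.6 CPM, with overlap and a lower value in mouse 3 (1.44-fold, 0.53 ± 0.12, SE, adjusted p = 0.0124). In the 7 role groups without a call the members of largest size were Irf1, Zbp1, Oasl2, Ifit2, Mx2, Iigp1 and Cxcl10, with log2 fold changes of -0.38, 0.56, 1.13, -0.54, 0.30, 1.40 and -0.05. For Irf1, 33.5, 48.8, 40.6 and 48.1 CPM with EC stood beside the 34.9, 47.0, 66.5 and 81.4 CPM with vehicle (adjusted p = 0.0861).

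With IPFc, 2 of 34 epithelial members were called, both higher, where 2.57% of all genes were higher and 1.53% lower. Iigp1 measured 1.03, 0.0811, 0.564 and 0.849 CPM with vehicle and 2.75, 2.01, 1.78 and 1.88 CPM with IPFc, without overlap (3.44-fold, 1.78 ± 0.46, SE, adjusted p = 0.0304). Ifitm3 measured 81.7, 87.1, 57.3 and 48.2 CPM and was higher in 4 of 4 mice although the groups overlapped (1.39-fold, 0.47 ± 0.12, SE, adjusted p = 0.0281). The members of largest size in groups without a call were Irf1, Zbp1, Oas1a, Ifit3, Mx2, Isg15 and Cxcl10, with log2 fold changes of -0.14, 0.94, 0.33, -1.25, 1.53, 0.92 and -0.13. Isg15, Bst2, Ifitm3 and Iigp1 all have higher levels in fibroblasts, whose mean share was 6.38% with vehicle, 12.3% with EC and 12.1% with IPFc (exact two-sided permutation test without the mouse, p = 0.0571 and 0.2, and higher than vehicle in 4 of 4 mice with each). After subtraction of that share, Isg15 with EC had a log2 fold change of 2.09 (adjusted p = 0.135), Bst2 of 0.24 (adjusted p = 0.877) and Iigp1 with IPFc of 2.90 (adjusted p = 0.413). In none of the 3 ways was a member called in either comparison, where 4 members had been higher at an unadjusted p under 0.05 in each as deposited. The share of all genes at that unadjusted p is not given. Over all genes, the subtractions left 324 of 17556 and 120 of 17536 called with EC, against 794 of 18024 as deposited. With IPFc they left 166 and 78 genes, against 739 as deposited. For EC edgeR also called 0 members without mouse 1, 2 or 4 and without the mouse as a block, and for IPFc 0 without mouse 1 or 2 and without the block, and 1 without mouse 3. Over all genes these fits called 421, 502, 727 and 391 with EC. With IPFc they called 352, 377, 297 and 550.

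**Figure D5:**
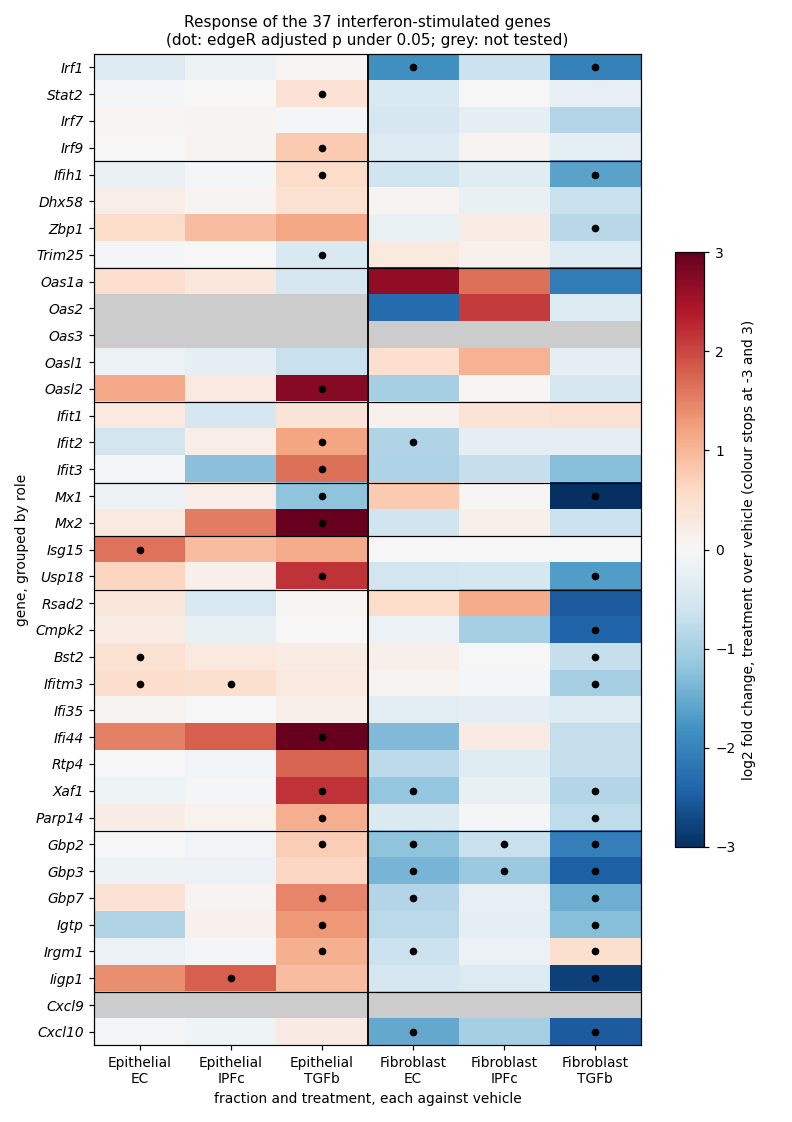
Log2 fold change of the 37 members (vertical axis, grouped by role) in the 6 comparisons of a treatment with vehicle (horizontal axis), as colour that stops at -3 and 3. Dots mark an edgeR adjusted p under 0.05 and grey marks members not tested. The epithelial TGFb column is mostly red, with 15 members called higher, and the fibroblast TGFb column mostly blue, with 16 called lower.

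Treatments were also compared with each other. In fibroblasts EC was lower than IPFc in 6 members (10.4% of all genes differed in either direction). These were Irf1 (-1.18 ± 0.23, SE, adjusted p = 0.00397), Xaf1 (-0.93), Ifit2 (-0.65), Gbp2 (-0.54), Irgm1 (-0.47) and Oas2, with 1 read over the EC and 33 reads over the IPFc libraries (30.8-fold, 95% counting interval 5.15 to 1252). The shares of epithelial RNA of these groups differ, 42.2% against 17.8%, and after either subtraction or with the offset 0 of these members passed, where 11 were lower at an unadjusted p under 0.05 as deposited. Calls over all genes went from 1885 of 18048 as deposited to 21 of 17421 and 15 of 17600 after the subtractions. Without mouse 2, 3 or 4 the member calls numbered 2, 1 and 1, and without the block 2. Over all genes these fits called 900, 893, 665 and 693. Fibroblast IPFc against TGFb gave 15 members higher and 1, Irgm1, lower with IPFc (17.4% of all genes in either direction). Among them were Iigp1 (2.39 ± 0.26, SE, adjusted p = 3.3e-06), Gbp2 (1.38 ± 0.12, SE, adjusted p = 1.52e-07) and Irf1 (1.37 ± 0.23, SE, adjusted p = 0.000362). The epithelial shares were 17.8% against 2.33%, and with them taken into account 8, 8 and 16 members were called, 8 of them in all 3 ways, each higher with IPFc (Irf1, Gbp2, Gbp3, Gbp7, Igtp, Iigp1, Zbp1 and Ifitm3). Over all genes, 664 of 17421 and 745 of 17600 were called after the subtractions, against 3141 of 18048 as deposited. No such count is given beside the 16 members called with the offset.

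In the epithelial fraction 1 member, Mx1, differed between EC and IPFc (-0.36 ± 0.10, SE, adjusted p = 0.0430, with 4.17% of all genes called in either direction). It measured 49.3, 54.3, 59.7 and 48.9 CPM with EC and 71.4, 71.3, 73.5 and 59.1 CPM with IPFc, where mouse 4 with IPFc lay within the EC range and the other 3 above it. The call was lost without mouse 1, 2 or 3, without the block and with the Xist or Y-linked share subtracted, and was kept in the other 2 ways. IPFc against TGFb gave 3 members higher with IPFc, Mx1, Oas1a and Trim25, and 13 lower (37.2% of all genes in either direction, and 10 in all without mouse 3), the largest differences being those of Ifit3 (-2.90), Ifi44 (-2.67) and Oasl2 (-2.45). The shares of fibroblast RNA were 12.1% against 27.9%, and with them taken into account 12, 4 and 12 members were called, of which Irf9, Ifih1 and Parp14, lower with IPFc, and Mx1, higher, were called in all 3 ways. Ifit3 and Oasl2 were called after subtraction of the estimated share and with the offset, and Ifi44 in none of the 3. Over all genes, 4559 of 17556 and 2955 of 17536 were called after the subtractions, against 6713 of 18024 as deposited.

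Whether a treatment acted differently in the fractions was tested with an interaction, the log2 fold change in the epithelial fraction minus that in the fibroblast fraction. For TGFb 24 of 35 members had a positive interaction, where 20.2% of all genes did, with a median of 2.10 over the members and 0.21 over all genes. The 8 with the lowest adjusted p were Usp18 at 3.86 ± 0.65 (SE, adjusted p = 4.65e-05), Iigp1 at 3.74, Gbp3 at 3.05, Gbp2 at 2.80 (SE 0.26, adjusted p = 6.6e-09), Igtp at 2.59, Ifih1 at 2.18, Irf1 at 2.10 and Parp14 at 1.88. Members called higher in the epithelial and lower in the fibroblast fraction numbered 7 of the 34 tested in both: Ifih1, Usp18, Gbp2, Gbp7, Igtp, Parp14 and Xaf1. Of all genes, 21.0% were higher in epithelial TGFb and 12.8% lower in fibroblast TGFb. The share of all genes with both calls was not computed. The share of the other fraction was higher with TGFb than with vehicle in all epithelial and lower in all fibroblast libraries, and with the shares taken into account 17, 12 and 22 members were called, 11 of them in all 3 ways (Irf1, Ifit3, Ifih1, Oasl2, Mx2, Usp18, Gbp3, Gbp7, Igtp, Iigp1 and Cxcl10). Over all genes, 2497 of 18247 and 1538 of 18239 were called in either direction after the subtractions, against 5054 of 18364 as deposited. No such count is given beside the 22 members called with the offset.

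For EC 3 members had an interaction, where 4.59% of all genes were called in either direction: Iigp1 at 1.86 ± 0.50 (SE, adjusted p = 0.0316), Irf1 at 1.45 ± 0.30 (SE, adjusted p = 0.00521) and Gbp2 at 1.17 ± 0.25 (SE, adjusted p = 0.00597). Leaving out fibroblast EC of mouse 1 gave 7 calls, leaving out mouse 2, 3 or 4 gave 0, 1 and 1, the fit without the block gave 0, and the subtractions 0, with Irf1 at 1.60 and 1.41 (adjusted p = 0.0581 and 0.558). Over all genes the subtractions left 217 of 18247 and 35 of 18239 called, against 843 of 18364 as deposited. Without mouse 2, 3 or 4 the genes called numbered 362, 223 and 273, and without the block 10. For IPFc 0 members passed edgeR's test (0.229% of all genes in either direction), 2 were higher at an unadjusted p under 0.05, and DESeq2 called 1.

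Of the 37 members, 11 were called in none of the 6 comparisons with vehicle: Irf7, Dhx58, Oas1a, Oas2, Oas3, Oasl1, Ifit1, Rsad2, Ifi35, Rtp4 and Cxcl9. Oas3 and Cxcl9 were not tested in either fraction, and Oas2 not in the epithelial one. The share of all genes called in none of the 6 was not computed. Among the 11 members Ifi35 was well expressed, at 12.3 ± 3.20 CPM (SD, n = 4) in epithelial vehicle and 28.0 ± 5.38 CPM (SD, n = 3) in fibroblast vehicle libraries, with group means of 12.3 to 12.8 CPM over the epithelial and 19.6 to 28.0 CPM over the fibroblast groups. Irf7, which amplifies type I interferon, stayed between group means of 1.90 and 4.20 CPM. The OAS, IFIT, Mx, GBP and immunity-related GTPase members belong to families of similar sequence, and how reads shared by relatives were counted is not given in the sources used here.

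Beyond the panel, 65 other genes of the pathway, listed by role, were counted in the same fits, and 55 passed the filter. The interferons themselves were near absent: of 9 ligands 4 had no read in any library and 5 had 1 to 9 reads over all 30 libraries, the most for Ifne. Among receptors, Ifngr1 rose in epithelial TGFb libraries from 47.1 ± 5.32 CPM (SD, n = 4) to 95.8 ± 13.3 CPM (SD, n = 3) (log2 fold change 1.03, adjusted p = 5.58e-08), Ifngr2 was lower (-0.28, adjusted p = 0.0153), the other 4 receptors did not pass, and the type III receptor Ifnlr1 was higher in epithelial than in fibroblast vehicle libraries by 3.17 on the log2 scale.

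In fibroblast TGFb 23 of 55 were called, each lower, where 12.8% of all genes were lower and 6.39% higher, among them Gbp4 (-3.28), Gbp6 (-2.91), Ifnlr1 (-2.59), Gbp5, with 200 reads over the vehicle and 3 over the TGFb libraries (93.9-fold, 95% counting interval 31.7 to 459), and Ifit1bl1, with 26 and 0 reads (at least 12.2-fold lower with the 0 taken as 3 reads over the group, with a 95% counting interval that begins at 9.23-fold). In fibroblast EC 3 were higher and 7 lower, where 4.28% of all genes were higher and 2.84% lower, led by Gbp5 (-2.42), Tgtp1 (-2.02), Tgtp2 (-1.46), Herc6 (-1.21) and Ifi47 (-1.13). Fibroblast IPFc gave 0 calls by edgeR (0.305% of all genes were higher and 0.144% lower), with 3 higher and 6 lower at an unadjusted p under 0.05, and DESeq2 was not run on this list.

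In epithelial TGFb 19 of 55 were higher and 6 lower, where 21.0% of all genes were higher and 20.1% lower, led by Ifitm1 (-2.45), Tgtp1 (2.20), Tgtp2 (2.05), Ifi47 (1.89) and Irgm2 (1.73). Epithelial EC gave 5 higher genes (1.96% of all genes), Slfn2 (1.19), Ikbke (1.02), Sting1 (0.82), Ifnar2 (0.80) and Ifngr2 (0.58), and epithelial IPFc 2 (2.57% of all genes), Slfn2 (1.21) and Sting1 (0.60). Between the vehicle fractions 12 were higher and 33 lower in the epithelial one (29.1% and 29.4% of all genes), with Irf8 (3.74) the largest positive and Slfn2 (-4.16) the largest negative difference. The interaction with TGFb was positive for 32 (20.2% of all genes) and negative for 1, and that with EC positive for 1 and negative for 2 (4.59% of all genes in either direction). The shares of the other fraction given above apply to these genes as well, and their part in these counts was not tested.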

How the data were processed

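Bulk RNA was sequenced from the Epcam+ and Epcam- fractions of the co-cultures with a stranded library kit, and reads were trimmed with Trimmomatic 0.30 per the labels. The raw counts per Ensembl gene were deposited by the authors. The aligner and counter are not given in the sources used here, and the genome build is given as GRCm38 in one source and GRCm39 in another, so gene positions and promoters are quoted from RefSeq GRCm38.p6 only and exon lengths from an annotation of GRCm39. The submitters' processing notes name DESeq2 1.34.0.

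Here, genes whose raw counts averaged 1 or more were normalised by TMM and tested with the quasi-likelihood test of edgeR 4.0.16 in R 4.3.3, with the mouse as a block and Benjamini-Hochberg adjustment at 0.05 over all genes. Contrasts within a fraction came from 1 fit per fraction (15 libraries, 8 residual degrees of freedom, 18024 epithelial and 18048 fibroblast genes, biological variation of 12.7% and 16.9%). The vehicle fractions and the interactions came from 1 fit of all 30 libraries (16 residual degrees of freedom, 18364 genes), with mice numbered within a fraction. The pairing of both fractions of a mouse was not used there. The vehicle libraries alone leave no residual degrees of freedom in that design, so the residual spread came from all groups. The p-values between fractions therefore do not measure how the difference varies between mice. Libraries of a mouse share their animal per the labels, and their deviations from the group means correlated with a mean r of 0.26 within epithelial mice and 0.28 within fibroblast mice, against -0.09 between mice. Scripts were tested on simulated data.

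For the share of the other fraction, the CPM of each marker of that fraction was divided by its CPM in the partner library of the same mouse and treatment, and the median was taken over markers with at least 50 CPM there. For epithelial vehicle of mouse 2 and fibroblast TGFb of mouse 1, whose partners were not analysed here, the mean of the partner group was used. Alternatives were DESeq2 1.42.0, its size factors, robust dispersion, other count filters, no mouse block, the title suffix R as a term, fits of only the compared groups, leaving out each mouse, and removal of the other fraction's RNA. Depth, 3 reads being 0.146 to 0.600 CPM, limits what can be said of members under 1 CPM, and counting intervals (95%) cover counting error only.

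The members and lists were chosen with earlier results of these data known. Values by library and full statistics were given for up to 6 called members of largest absolute log2 fold change in each direction of a comparison, for the largest of each role group with no call, for members called in opposite directions and for up to 8 members of an interaction. Other pathway genes were named up to 5 per comparison by size. Members and pathway genes named beyond these rules were chosen after their values were seen.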

Additional observations from a re-analysis of the deposited data

Results flagged for a closer look

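A single library stood apart from the other 3 in 7 of the 65 member and group combinations with 4 libraries and a read that were examined, by the ratio of its gap to the group's range, and chance gives about 1 in 20. Epithelial vehicle of mouse 1 had Mx2 at 0.343 CPM (the others 0 to 0.0513), Usp18 at 1.65 CPM (the others 0.308 to 0.487) and Xaf1 at 1.44 CPM (the others 0.308 to 0.487), and this library has no TGFb partner here. In fibroblasts Oas1a stood at 0.210 CPM in EC of mouse 2 (the others 0.800 to 0.910), and Mx2 at 2.15 CPM in IPFc of mouse 2 (the others 0.842 to 1.06). The other 2 are single reads, under the limit of 3 reads, and a single read beside libraries at 0 always stands apart by this ratio, so the chance share does not apply to them: Ifi44 at 0.0849 CPM in epithelial vehicle of mouse 4 and Oas1a at 0.0668 CPM in fibroblast TGFb of mouse 2.

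The response to a treatment differed between the fractions by the interaction test for the members named above. For EC these were Iigp1 (1.86), Irf1 (1.45) and Gbp2 (1.17), and for TGFb, among the 24 called, Usp18 (3.86), Iigp1 (3.74), Gbp3 (3.05), Gbp2 (2.80), Igtp (2.59), Ifih1 (2.18), Irf1 (2.10) and Parp14 (1.88), each as the log2 fold change in the epithelial minus that in the fibroblast fraction. Of these 8, Irf1, Usp18, Gbp3, Igtp, Iigp1 and Ifih1 were called in all 3 ways of taking the share of the other fraction into account.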

How the results depend on the processing

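For named members, direction and call were kept in 1304 alternatives, where 246 lost the call, 12 gained one and 23 changed sign. Members uncalled as deposited that stayed uncalled count as kept. Member counts per comparison and shares of the other fraction were labelled the same in 158 alternatives and moved in 80. Without the replicate block, the number of members called went to 0 for epithelial EC, epithelial IPFc, fibroblast IPFc, epithelial EC against IPFc and the EC interaction, to 3 for fibroblast EC and to 2 for fibroblast EC against IPFc. In the same order, 391, 297, 35, 422, 10, 321 and 693 of all genes were called. With the title suffix R as a term the members called went to 0 for epithelial IPFc, fibroblast IPFc and epithelial EC against IPFc and to 4 for fibroblast EC. Calls over all genes were then 535, 44, 658 and 537. Without a filter on low counts the members called numbered 5 for epithelial EC, 2 for epithelial EC against IPFc, 6 for the EC interaction and 1 for the IPFc interaction. DESeq2 gave 2, 5 and 1 for the last 3, and a mean count of at least 10 gave 2 and 5 for epithelial EC against IPFc and the EC interaction. With only the groups compared and the replicate block, epithelial EC against IPFc had 0, fibroblast EC against IPFc 1, the EC interaction 5 and the IPFc interaction 1, and for the vehicle fractions this setting was not run, since mice numbered within a fraction leave no residual degrees of freedom there. The cause was not tested for any of these.

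With the share of the other fraction subtracted, epithelial EC, epithelial IPFc, fibroblast EC, fibroblast IPFc, fibroblast EC against IPFc and the EC interaction had 0 calls, epithelial TGFb 11, fibroblast TGFb 10 and fibroblast IPFc against TGFb 8. With the Xist or Y-linked share, epithelial EC, epithelial IPFc, epithelial EC against IPFc, fibroblast IPFc, fibroblast EC against IPFc and the EC interaction had 0, fibroblast EC 1, epithelial TGFb 6, epithelial IPFc against TGFb 4, fibroblast TGFb 10, fibroblast IPFc against TGFb 8 and the TGFb interaction 12. With the offset, epithelial EC, epithelial IPFc and fibroblast EC against IPFc had 0, fibroblast IPFc 1, fibroblast EC 2 and epithelial TGFb 7. Calls over all genes also fell after the subtractions in each comparison named here. The Xist or Y-linked shares were 19.7% ± 18.5 (SD, n = 4) in epithelial EC, where mouse 1 had 46.0% and the others 5.52% to 19.4% (mean 11.0% without mouse 1), 30.8% in epithelial TGFb and 35.0% in fibroblast EC.

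Leaving out each mouse in turn gave 0 to 2 calls for epithelial EC and for epithelial IPFc, 9 to 16 for epithelial TGFb, 0 to 1 for epithelial EC against IPFc, 10 to 15 for epithelial IPFc against TGFb, 3 to 9 for fibroblast EC, 0 to 3 for fibroblast IPFc, 12 to 16 for fibroblast TGFb, 1 to 5 for fibroblast EC against IPFc, 11 to 17 for fibroblast IPFc against TGFb, 24 to 27 for the vehicle fractions, 0 to 3 for the EC interaction, 0 for the IPFc interaction and 19 to 23 for the TGFb interaction. Calls over all genes moved too. For fibroblast EC they went from 1284 to 217 without mouse 3 and to 2053 without mouse 1. For the EC interaction they went from 843 to 223 without mouse 3 and to 778 without mouse 1. Without fibroblast EC of mouse 1, fibroblast EC had 13, the EC interaction 7 and the IPFc interaction 1 (Iigp1).

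Of log2 fold changes that changed sign, Mx1 in fibroblasts was -5.17 (subtracted) and -0.15 (offset) with EC, 0.77, 2.55 and 0.41 (subtracted, Xist or Y-linked, offset) with TGFb and -3.26, -1.04 and -0.39 for IPFc against TGFb. The Mx1 values after subtraction rest in part on counts below 0 that were set to 0. Cxcl10 in the epithelial fraction was 0.23, 0.28 and 0.065 with EC in the same 3, 0.22 and 0.15 without mouse 3 and 4, and 0.059, 0.21 and 0.051 with IPFc (subtracted, Xist or Y-linked, suffix R). Leaving out each mouse moved Cxcl10 from -0.32 (mouse 2) to 0.21 (mouse 3) with IPFc and from -0.15 (mouse 4) to 0.53 (mouse 3) with TGFb. Mx2 was 2.38, -0.11, -0.02 and -0.38 with epithelial EC without mouse 1, 2, 3 and 4, and ran from -0.16 (mouse 4) to 0.64 (mouse 1) with fibroblast IPFc. Irf1 with epithelial IPFc was 0.047 with the Xist or Y-linked share. All but Mx1 with TGFb and for IPFc against TGFb were uncalled as deposited.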

Other observations

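Cxcl10 had its highest value in mouse 4 in all 8 groups, and Irf1 in 7 of 8, among 37 members of which these 2 had the same mouse highest in at least 7 of 8 groups. Both fractions of a culture come from the same mouse, and the genes were picked after their values were seen, so this is given as a value only.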
